A study of Bos taurus and Ovis aries and Capra hircus with 18 samples.

Results

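A set of 7 genes tied to prion disease and other neurodegenerative disease was followed in the brain and muscle of 3 ruminants. They are PRNP (prion protein), SNCB and SNCG (beta- and gamma-synuclein), APP (amyloid precursor protein), MAPT (tau), APOE (apolipoprotein E) and CLU (clusterin). The genes were listed by name, with no threshold on their counts. Each was found in cattle by its position on the genome, and its sheep and goat partners were found by exon lengths and gene order. All 7 were found, among 15223 genes matched in the 3 species. The files count 27607 cattle genes, 26478 sheep genes and 27271 goat genes.

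The data are RNA-seq read counts from adult animals, with 3 libraries each of cattle brain, sheep brain, goat brain, cattle muscle, sheep muscle and goat muscle, 18 in all. No animal carried a stated treatment or engineered allele, and which brain region or muscle was taken is not stated. The libraries of a group are lettered A, B and C. Nothing in the labels says that the letters are separate animals, so each p-value measures only the spread between these libraries, which may be technical.

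The prion protein is anchored to the outer face of neurons and many other cells, and its misfolded form is the agent of scrapie in sheep and goats and of bovine spongiform encephalopathy in cattle. Synucleins sit at presynaptic terminals, APP is the membrane protein that secretases cut to release amyloid-beta, and tau binds axonal microtubules. Apolipoprotein E and clusterin are secreted lipid carriers and extracellular chaperones, made in brain largely by astrocytes.

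Each library held between 20730803 and 58514630 counts. Between 17204 and 20221 genes had at least 1 count. The markers of neurons and of skeletal muscle fibres matched the tissue labels. The summed level of the 7 matched neuron markers, of 8 listed, was 1244 to 2693 CPM per kb (read counts scaled by library size and by kilobases of exon) in the 9 brain libraries and 1.73 to 4.59 in the 9 muscle libraries. The 7 markers of skeletal muscle fibres summed to 3.31 to 18.9 CPM per kb in brain and 50258 to 136522 in muscle. The 4 matched markers of choroid plexus and ependyma summed lower in brain than in muscle in cattle (9.82 to 17.4, against 58.8 to 82.3) and goat (1.73 to 11.2, against 23.0 to 46.9). In sheep their sums overlapped. Over the 3 species together, 3 of these 4 were called higher in brain and 1 lower. One library stood apart from its group: in sheep brain C, 46.6% of genes lay more than 2-fold from the mean of sheep brain A and B, against 0.3904% to 16.1% of genes in the other libraries. Goat muscle C was at the top of that range. Differences between brain and muscle within sheep and within goat are given with and without them, as are some later results. Other values include both libraries unless stated.

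PRNP was more abundant in brain than in muscle in cattle and goat, by 3.94-fold and 6.28-fold of the means. In sheep, 2 of the 3 brain libraries showed a like difference and the third did not. In cattle it had 132, 124 and 144 CPM per kb in brain libraries A, B and C, against 32.5, 34.2 and 35.1 CPM per kb in muscle. The cattle groups did not overlap and their libraries lay close together. In goat it had 159.9, 112 and 148 CPM per kb in brain, against 26.9, 32.6 and 7.36 CPM per kb in muscle. The goat groups did not overlap either, and goat muscle C was the lowest library by far. In sheep it had 127, 94.8 and 5.49 CPM per kb in brain, against 31.2, 25.01 and 22.5 CPM per kb in muscle. Sheep brain C thus lay below every sheep muscle library. Its PRNP value rested on 181 reads, against 4378 and 3790 reads in sheep brain A and B.

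The log2 difference of PRNP, brain minus muscle, was 1.99 ± 0.14 in cattle (SE, n = 3 each; edgeR adjusted p = 4.0e-06) and 2.65 ± 0.51 in goat (adjusted p = 0.00174). In sheep it was 1.50 ± 0.93 and was not called (edgeR adjusted p = 0.222). A gene was called where the adjusted p was below 0.05 and the difference at least 2-fold. Without sheep brain C the sheep value was 2.05 ± 0.18 (adjusted p = 5.22e-05). Without goat muscle C the goat value was 2.19 ± 0.25 (adjusted p = 0.000101). Over the 3 species together the difference was 2.05 ± 0.40 with all libraries (adjusted p = 0.000151) and 2.09 without those 2 libraries. In bulk tissue, fewer cells of a type and less RNA per cell cannot be told apart, here and in each result that follows.

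**Figure D1:**
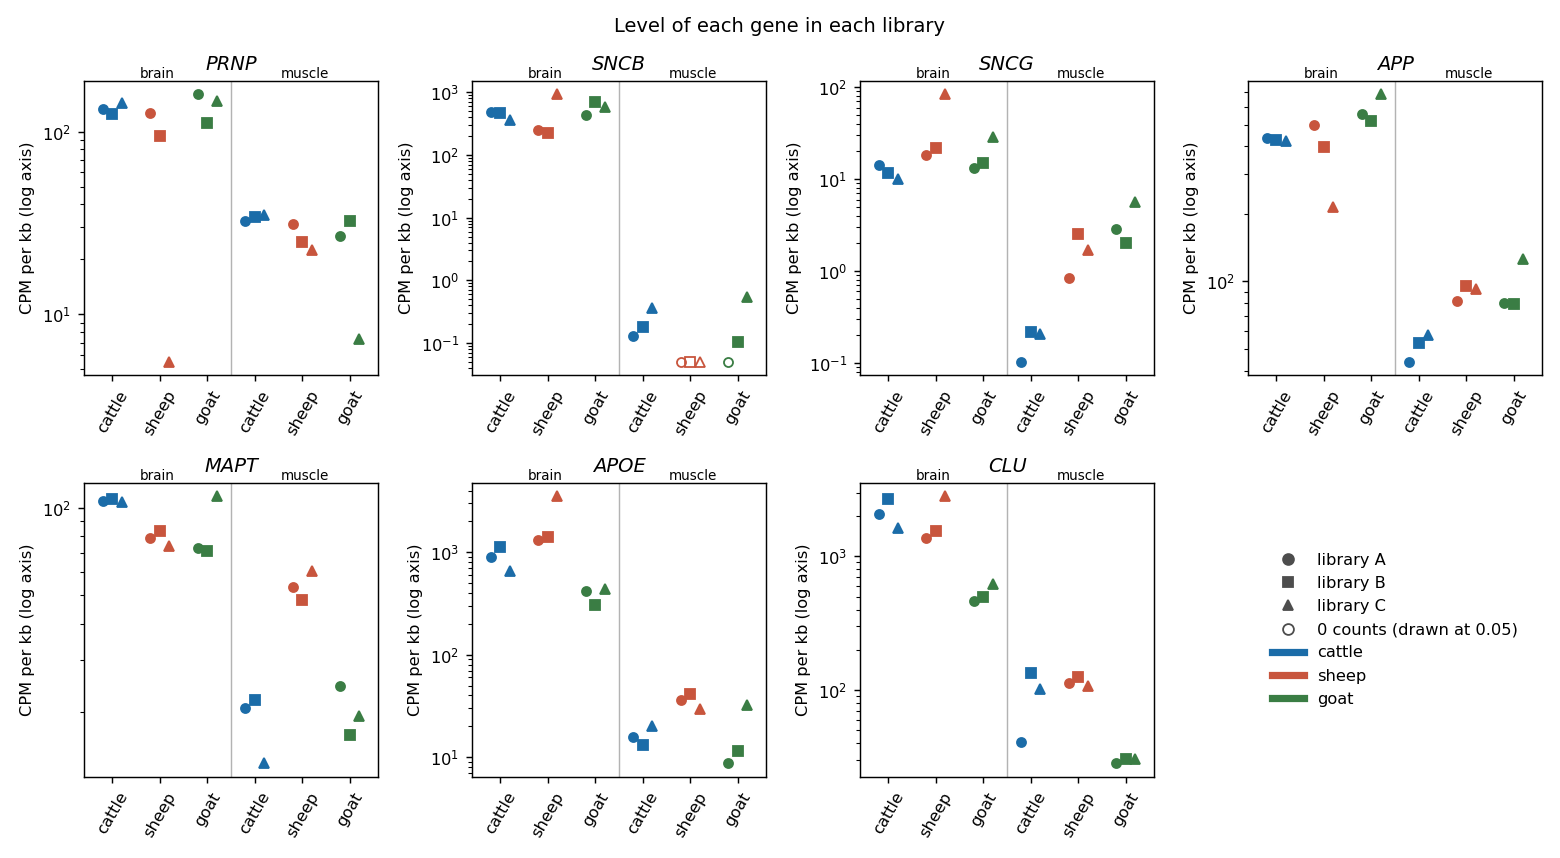
Level of each gene in each library, in CPM per kb on a log axis, with brain groups left of muscle groups in each panel. Symbols stand for libraries A, B and C, and open symbols mark libraries with 0 counts. PRNP in sheep brain C (5.49) lies under all sheep muscle libraries. On this scale, which depends on model lengths, MAPT in sheep muscle (48.3 to 60.7) lies above cattle and goat muscle.

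By mean level PRNP ran from goat brain (139.97 ± 24.8 CPM per kb, SD, n = 3) through cattle brain (134 ± 9.92), sheep brain (75.6 ± 62.8), cattle muscle (34.0 ± 1.32) and sheep muscle (26.2 ± 4.44) to goat muscle (22.3 ± 13.2). Neighbours within a tissue differed by less than their spread, except that cattle muscle lay above sheep muscle without overlap. None of the 6 comparisons between species within a tissue was called for PRNP. PRNP was between rank 318 and 689 by CPM per kb among the genes of its library in 8 of the 9 brain libraries, at rank 7655 in sheep brain C, and between rank 2271 and 3241 in 8 of the 9 muscle libraries. In goat muscle C it was at rank 6628.

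The PRNP gene models differ between species, which bears on levels between species. Whether bases left out of a model weigh alike on brain and muscle within a species was not tested. In cattle the model (ENSBTAG00000048903) lies on the plus strand of chromosome 13, 47039699 to 47058759 on ARS-UCD1.2, in 4 exon blocks with 2569 exonic bases. In sheep (ENSOARG00020011739, chromosome 13, 48674983 to 48675753) it is 1 block of 771 bases, a multiple of 3. In goat (ENSCHIG00000014184, chromosome 13, 46465060 to 46470465) it has 785 exonic bases. No source used here names the sheep or goat build. Exon lengths did not link all 3 models. In sheep, goat or both, PRNP was matched by its place between matched neighbours alone, and its levels between species rest on that match. In cattle a gene of 387 bases on the opposite strand covers 376 exonic bases of PRNP. It held 0 to 1 counts per library, and whether reads under it were lost to PRNP was not tested.

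Not all 7 genes were low in sheep brain C. On the log2(CPM per kb + 1) scale PRNP stood at -4.11 against the mean of sheep brain A and B. That value lay at the 0.0862 percentile of the deviations of 11604 genes in that library. APP was also lower there (-1.06) and MAPT was close to the other 2 libraries (-0.14). SNCB was 1.96 above them, SNCG 2.02, APOE 1.37 and CLU 0.95. In goat muscle C, PRNP was likewise the lowest of the 7 against its group (-1.88, the 1.76 percentile). APOE was 1.58 above its group in that library and SNCG 0.93. Across 9633 genes the deviations of sheep brain C and goat muscle C had a Pearson r of 0.54. That value describes 2 libraries, and genes are not independent replicates. The neuron markers summed to 1244 CPM per kb in sheep brain C, against 2526 and 2006 in sheep brain A and B, but they did not move alike. SYT1 had 12.8 CPM per kb there, against 254 and 216, and SNAP25 had 309, against 1127 and 948, whereas ENO2 had 523, against 348 and 312. The astrocyte markers summed to 2606, against 2802 and 3174, and this sum held members far apart. AQP4 had 3.79 CPM per kb, against 111 and 112, SLC1A2 had 3.74, against 74.7 and 127, and SLC1A3 had 40.2, against 424 and 582. GJA1 had 8.21, against 75.4 and 88.8, and GFAP had 718, against 1283 and 1328, whereas ALDOC had 1790.1, against 803 and 899. Low and high values thus occurred within both lists, as among the 7 genes. The muscle fibre markers summed to 14.7, against 5.88 and 3.31. In goat muscle C the endothelial markers summed to 333 CPM per kb, against 142 and 177 in goat muscle A and B, and the adipocyte markers to 6.77, against 26.8 and 29.3. The part of these markers in the PRNP values was not tested.

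**Figure D2:**
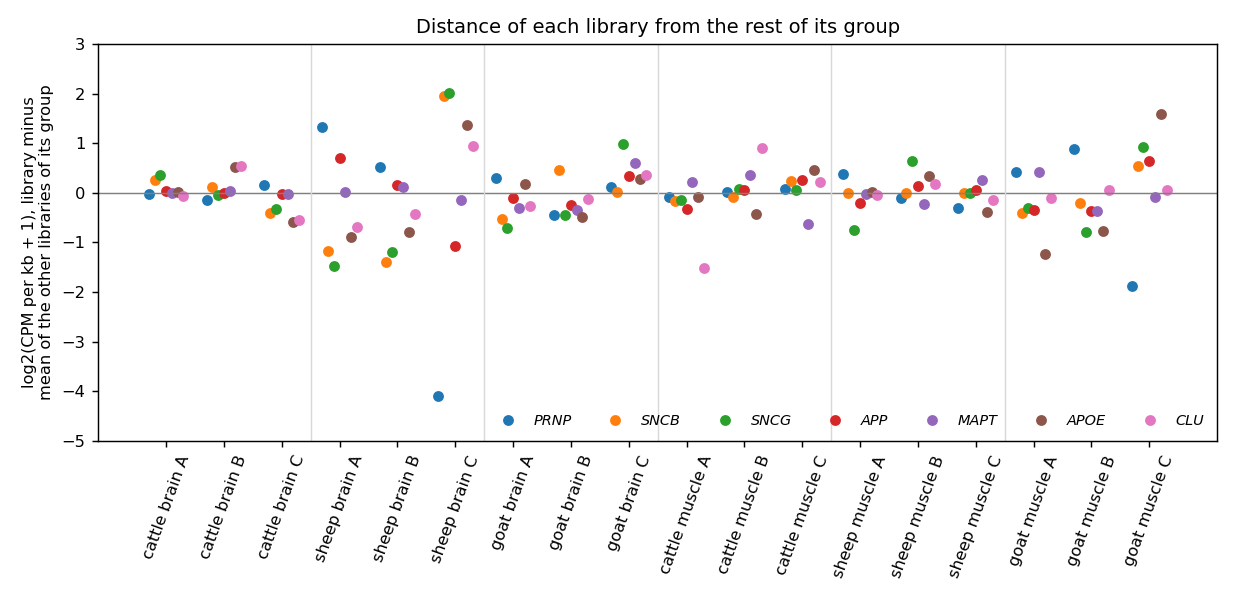
Deviation of each gene in each library from the mean of the other libraries of its group, on the log2(CPM per kb + 1) scale, with brain libraries left of muscle libraries. PRNP lies lowest in sheep brain C (-4.11) and goat muscle C (-1.88), where SNCG and APOE lie above 0.

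Over all 7 genes, brain exceeded muscle wherever a difference was called. In cattle, 7 of 7 were called higher in brain, where 33.9% of the 16428 genes tested were. In goat 7 of 7 were called higher, against 31.4% of 15825 genes. In sheep 5 of 7 were called higher, against 28.5% of 15616 genes, and PRNP and MAPT were not called. Without sheep brain C, PRNP was called too and 31.7% of 16154 genes were higher. Over the 3 species together 7 of 7 were called higher, against 31.9% of 13597 genes. None of the 7 was called lower in these edgeR comparisons, in which every estimate was above 0, where 25.3% of genes were in cattle, 19.2% in sheep, 23.2% in goat and 22.5% over the 3 species.

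**Figure D3:**
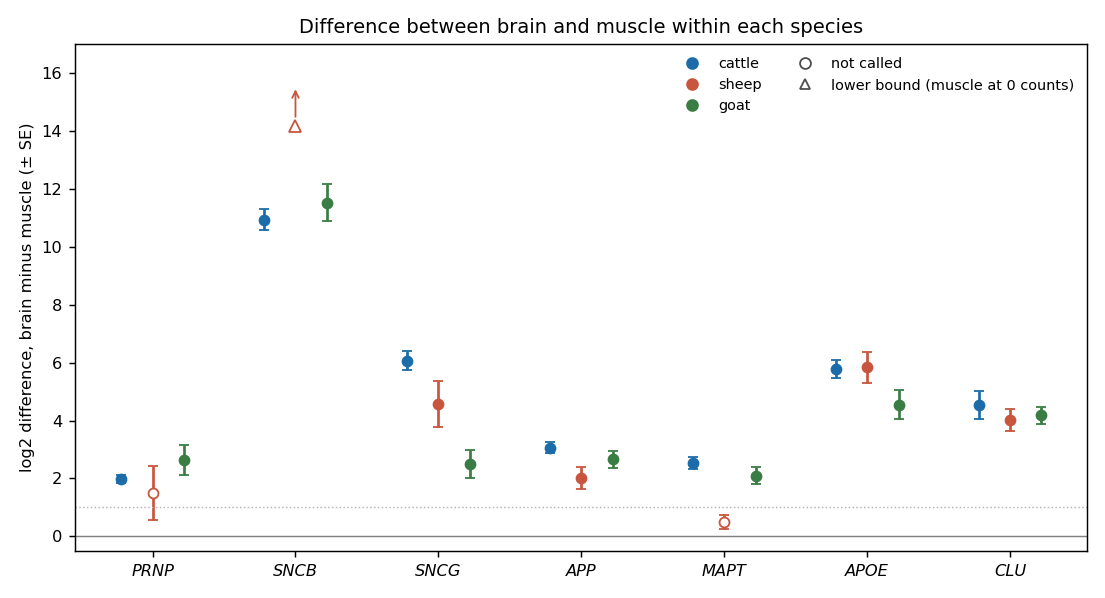
Log2 difference, brain minus muscle, for each gene within each species, with SE bars. Open circles were not called, the open triangle is a lower bound, and the dotted line marks a 2-fold difference. SNCB is highest in each species, and sheep MAPT (0.51) and sheep PRNP (1.50) are the values that were not called.

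The synucleins were the genes most nearly absent from muscle. SNCB, a synuclein of presynaptic terminals, had 494, 463 and 362 CPM per kb in cattle brain, against 0.129, 0.180 and 0.361 in cattle muscle. The cattle muscle values came from 4, 7 and 13 reads. In goat it had 443, 706 and 580.3 CPM per kb in brain, and 0, 1 and 4 reads in the muscle libraries. In sheep it had 254, 223 and 929 CPM per kb in brain and no read in any muscle library. Brain and muscle were far apart in each species, and sheep brain C was the highest brain library of all. For SNCB the log2 difference was 10.93 ± 0.36 in cattle (edgeR adjusted p = 7.5e-08) and 11.53 ± 0.64 in goat (adjusted p = 1.19e-06). In sheep the brain mean was 18312-fold the floor of 3 counts over the sheep muscle group, and 9315-fold without sheep brain C. Both are lower bounds on brain over muscle, since no sheep muscle library held a read. The sheep difference was called with all libraries (edgeR adjusted p = 0.000837). Without goat muscle C, which held 4 of the 5 goat muscle reads, the goat value was 13.16. The cattle gene (ENSBTAG00000009803) lies on chromosome 7, 38091557 to 38100473.

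SNCG, the synuclein of peripheral and motor neurons, was the least abundant of the 7 in brain in each species. It had 14.3, 11.7 and 10.1 CPM per kb in cattle brain, against 0.103, 0.219 and 0.207 in cattle muscle, where it had 3, 8 and 7 reads. In sheep it had 18.2, 21.6 and 83.6 CPM per kb in brain, against 0.833, 2.52 and 1.68 in muscle. In goat it had 13.1, 15.1 and 29.0 CPM per kb in brain, against 2.90, 2.03 and 5.61 in muscle. Brain and muscle did not overlap in any species, and each sheep and goat muscle library lay above each cattle muscle library. Brain minus muscle, SNCG had a log2 difference of 6.06 ± 0.33 in cattle, 4.57 ± 0.81 in sheep and 2.50 ± 0.49 in goat (edgeR adjusted p = 7.8e-07, 0.00375 and 0.00188). Without sheep brain C the sheep value was 3.52, and without goat muscle C the goat value was 2.90. The cattle gene (ENSBTAG00000003515) lies on chromosome 28, 41570798 to 41575650.

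APP, the source of amyloid-beta and itself a membrane protein of many tissues, was high in brain and well measured in muscle. It had 435, 426 and 422 CPM per kb in cattle brain, against 43.8, 52.9 and 57.7 in cattle muscle. Sheep libraries had 499.9, 399 and 214 CPM per kb in brain, against 81.7, 95.4 and 92.2 in muscle. Goat libraries had 555, 519 and 682 CPM per kb in brain, against 80.2, 79.1 and 125 in muscle. No brain library was as low as a muscle library of its species. For APP the log2 difference was 3.07 ± 0.20 in cattle, 2.02 ± 0.37 in sheep and 2.67 ± 0.29 in goat (edgeR adjusted p = 2.02e-06, 0.0041 and 5.9e-05). The sheep value was 2.29 without sheep brain C, and the goat value was 2.83 without goat muscle C. The cattle gene (ENSBTAG00000017753) spans 312689 bases of chromosome 1, 10231296 to 10543984.

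MAPT, which encodes the microtubule-binding protein tau, showed a smaller difference between the tissues in sheep, where its level in muscle per kb was high. In cattle it had 105, 107 and 105 CPM per kb in brain, against 20.5, 21.9 and 13.3 in muscle. Sheep libraries had 79.0, 83.3 and 73.7 CPM per kb in brain, against 53.3, 48.3 and 60.7 in muscle. Goat libraries had 72.7, 71.2 and 109.5 CPM per kb in brain, against 24.4, 16.7 and 19.4 in muscle. Brain and muscle did not overlap in any species, and per kb each sheep muscle library lay above every cattle and goat muscle library. Without the division by length, sheep muscle (122, 111 and 139 CPM) overlapped goat muscle (159, 109 and 126). Cattle muscle (75.2, 80.3 and 48.7) still lay below sheep muscle. Sheep brain (181, 190 and 169) then lay below goat brain (473, 464 and 713) and cattle brain (385, 392 and 384). Which sheep tissue stands out between species thus depends on the model lengths. For MAPT the log2 difference was 2.52 ± 0.21 in cattle and 2.09 ± 0.29 in goat (edgeR adjusted p = 1.06e-05 and 0.000266). The goat value was 1.99 without goat muscle C. In sheep the log2 difference was 0.51 ± 0.23 and was not called (edgeR adjusted p = 0.113). Without sheep brain C it was 0.55 ± 0.14, past the adjusted p (edgeR, 0.00988) but under 2-fold. With libraries scaled to their totals alone, which raised the median of all genes in sheep by 0.94, the sheep value was 1.47 and was called. Against the median of all genes it was 0.33 with the trimmed-mean scaling and 0.35 with totals alone.

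The MAPT models again differ. The cattle model (ENSBTAG00000017512) lies on chromosome 19, 45883594 to 46004542, with 19 exon blocks and 3666 exonic bases. The goat model spans 122434 bases with 6513 exonic bases, and the sheep model 49733 bases with 2286. Reads from parts of the gene that the sheep model leaves out were not counted for MAPT, and the effect of that on the 2 tissues was not tested.

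APOE and CLU were the most abundant of the 7 in cattle and sheep brain. APOE, the main apolipoprotein of brain, had 896, 1116 and 664 CPM per kb in cattle brain, against 15.8, 13.2 and 20.3 in cattle muscle. Sheep libraries had 1327, 1400.4 and 3537 CPM per kb in brain, against 36.2, 41.5 and 29.6 in muscle. Goat libraries had 423, 308 and 442 CPM per kb in brain, against 8.67, 11.5 and 32.2 in muscle. No groups overlapped; the closest libraries were goat brain B and goat muscle C. For APOE the log2 difference was 5.78 ± 0.31 in cattle, 5.83 ± 0.54 in sheep and 4.55 ± 0.51 in goat (edgeR adjusted p = 8.07e-07, 0.000275 and 6.91e-05). Without sheep brain C the sheep value was 5.22, and without goat muscle C the goat value was 5.23. The cattle gene (ENSBTAG00000010123) lies on chromosome 18, 52637233 to 52640572.

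CLU, an extracellular chaperone, had 2062, 2679 and 1628 CPM per kb in cattle brain, against 40.9, 135 and 102 in cattle muscle. Sheep libraries had 1367, 1557 and 2826 CPM per kb in brain, against 113, 125 and 107 in muscle. Goat libraries had 465, 499 and 617 CPM per kb in brain, against 28.2, 30.3 and 30.3 in muscle. The groups were well apart in each species, and cattle muscle A lay below the other cattle muscle libraries. For CLU the log2 difference was 4.53 ± 0.48 in cattle, 4.02 ± 0.39 in sheep and 4.18 ± 0.30 in goat (edgeR adjusted p = 4.29e-05, 0.000313 and 4.33e-06). The sheep value was 3.63 without sheep brain C, and the goat value was 4.12 without goat muscle C. The cattle gene (ENSBTAG00000005574) lies on chromosome 8, 11176838 to 11194518.

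Whether the difference between brain and muscle itself differed between species was tested as the interaction of species with tissue, in which exonic length cancels. Of the 7 genes 3 were called, where 25.5% of 13597 genes were: MAPT (edgeR adjusted p = 0.00147), SNCG (0.0173) and SNCB (0.0368). PRNP (0.604), APP (0.152), APOE (0.174) and CLU (0.731) were not called, which does not show that their differences were alike. For MAPT the difference in cattle exceeded that in sheep by 1.97 ± 0.34 on the log2 scale (edgeR adjusted p = 0.000905; 19.6% of genes called in either direction). The difference of MAPT in sheep minus that in goat was -1.53 ± 0.34 (adjusted p = 0.0123; 7.98% of genes called). For SNCG the difference in cattle exceeded that in goat by 3.58 ± 0.87 (adjusted p = 0.0117; 13.6% of genes called). The SNCG interaction was not called without goat muscle C (edgeR adjusted p = 0.0515), where its log2 difference in goat was 2.90, and was called without both sheep brain C and goat muscle C (adjusted p = 0.00326). The SNCB interaction rests on muscle groups with 24 reads in cattle, 0 in sheep and 5 in goat. It was not called in 8 of the 18 fits that left out 1 library, with edgeR adjusted p between 0.0192 and 0.0814 over all 18. With both sheep brain C and goat muscle C left out it was called (edgeR adjusted p = 0.0072), on 0 and 1 reads in goat muscle A and B.

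Summed markers of other cell types also differed between the muscle groups, and some of these sums rested largely on a single gene. The 7 neuron markers summed to 2.02 to 2.32 CPM per kb in cattle muscle, 2.698 to 4.59 in sheep muscle, where 1 to 3 of them had no read, and 1.73 to 2.67 in goat muscle. STMN2 alone had 2.58, 3.50 and 2.19 CPM per kb in sheep muscle A, B and C, whereas SNAP25 had 0, 0.0225 and 0. The 7 matched astrocyte markers summed to 5.93 to 12.4, 23.7 to 35.3 and 8.4999 to 25.8 CPM per kb in cattle, sheep and goat muscle. GJA1 alone had 24.1, 25.8 and 15.3 in sheep muscle A, B and C, against 1.48, 3.14 and 1.55 in cattle muscle. GFAP had 0.258, 0.0819 and 0.130 in sheep muscle, below 0.479, 0.365 and 0.266 in cattle muscle. AQP4 had 9.89 and 11.7 in goat muscle A and B but 0.166 in goat muscle C. The 8 oligodendrocyte markers summed to 16.1 to 19.7, 22.8 to 37.6 and 41.6 to 57.5, and the 6 endothelial markers to 82.9 to 97.3, 219.6 to 231 and 142 to 333, in the same order of species. The 5 matched markers of Schwann cells and peripheral nerve summed to 53.7 to 60.002, 50.2 to 77.4 and 59.8 to 97.8 CPM per kb. The 5 matched adipocyte markers summed to 41.8 to 76.8, 42.1 to 173 and 6.77 to 29.3 CPM per kb in the same 3 groups. Their part in the MAPT and SNCG results was not tested.

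Between species within a tissue, 13 of 42 differences of the 7 genes were called in either direction, and several of these calls depend on the exonic length of each model. Of all genes, 6.13% to 16.7% were called in each direction of a brain comparison and 11.5% to 19.4% in each direction of a muscle comparison. Within brain, cattle minus sheep, SNCG (-1.77 ± 0.55, edgeR adjusted p = 0.0217) and APOE (-1.23 ± 0.45, adjusted p = 0.0478) were lower in cattle, where 16.7% of genes were called lower and 9.49% higher. Neither was called without sheep brain C, where the values were -0.72 and -0.61. Over the 18 fits that left out 1 library, APOE was not called in 13. In the brain comparison of cattle minus goat, CLU was higher in cattle (2.01 ± 0.38, edgeR adjusted p = 0.000781), where 11.3% of genes were called higher and 12.8% lower. Within brain, sheep minus goat, APOE (2.42 ± 0.47, edgeR adjusted p = 0.00135) and CLU (1.86 ± 0.38, adjusted p = 0.00185) were higher in sheep, where 12.1% of genes were called higher and 6.13% lower. With sheep brain C and goat muscle C left out, these values were 1.80 for APOE and 1.47 for CLU, and both were still called. The goat models of APOE and CLU have 3457 and 4435 exonic bases, against 1293 and 1825 in sheep and 2033 and 1952 in cattle. With no correction for length neither CLU nor APOE was called in a comparison with goat brain. The astrocyte markers summed to 1811 to 2593 CPM per kb in cattle brain, 2606 to 3174 in sheep brain and 1171 to 2841 in goat brain. The oligodendrocyte markers summed to 914 to 1366 in cattle brain, 1513 to 1976 in sheep brain and 5024 to 31110.4 in goat brain, where goat brain A was the highest. Marker sums compared between species also depend on the model lengths, and the part of these markers in these results was not tested.

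Within muscle, cattle minus sheep, SNCG (-3.20 ± 0.68, edgeR adjusted p = 0.00174) and MAPT (-1.54 ± 0.24, adjusted p = 0.000134) were lower in cattle, where 16.9% of genes were called lower. SNCB was called higher in cattle there, where 13.2% of genes were, on the 24 and 0 reads given above. Within muscle, cattle minus goat, SNCG was lower in cattle (-4.24 ± 0.70, edgeR adjusted p = 0.000164) and CLU higher (1.65 ± 0.37, adjusted p = 0.00216), where 19.4% of genes were called lower and 15.3% higher. Within muscle, sheep minus goat, MAPT (1.43 ± 0.24, edgeR adjusted p = 0.000351) and CLU (1.96 ± 0.38, adjusted p = 0.00102) were higher in sheep, where 11.5% of genes were called higher. SNCB was called lower in sheep there, where 12.2% of genes were, on 0 and 5 reads, and was not called without sheep brain C and goat muscle C. Without the length correction MAPT was not called between sheep and goat muscle (0.05), while its interaction with tissue stood at an adjusted p of 0.00158. CLU was then not called in muscle either, with 0.14 for cattle minus goat and 0.81 for sheep minus goat.

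Ratios within a library use no scaling between libraries. The log2 ratio of PRNP to APP, per kb, averaged -1.68 ± 0.12 in cattle brain and -0.59 ± 0.15 in cattle muscle (SD, n = 3 each), and the libraries of the 2 tissues did not overlap. In goat it averaged -2.07 ± 0.24 in brain and -2.32 ± 1.54 in muscle, and in sheep -3.11 ± 1.88 in brain and -1.78 ± 0.34 in muscle. With all libraries the spread in these 2 species was wider than the difference. Without goat muscle C (-4.09) the goat muscle libraries had -1.57 and -1.28, above each goat brain library, as in cattle. Without sheep brain C (-5.29) the sheep brain mean was -2.03, and the sheep groups overlapped. The log2 ratio of APOE to CLU averaged -1.25 ± 0.05 in cattle brain and -2.35 ± 0.99 in cattle muscle, 0.04 ± 0.25 in sheep brain and -1.70 ± 0.14 in sheep muscle, and -0.44 ± 0.28 in goat brain and -1.004 ± 0.96 in goat muscle. APOE was therefore higher relative to CLU in brain than in muscle in each library pair of cattle and sheep, and the goat groups overlapped through goat muscle C (0.09). The other goat muscle libraries had -1.70 and -1.40, below each goat brain library. For APOE to CLU the sheep brain mean was -0.098 without sheep brain C, where the ratio was 0.32. SNCB exceeded SNCG in every brain library, by a log2 ratio of 5.19 ± 0.10 in cattle, 3.55 ± 0.23 in sheep and 4.98 ± 0.62 in goat.

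By mean CPM per kb the order in cattle brain was CLU, APOE, SNCB, APP, PRNP, MAPT and SNCG. In sheep brain APOE and CLU led, and in goat brain APP, SNCB and CLU did. APOE was first in sheep brain through sheep brain C (3537, against 2826 for CLU). In sheep brain A and B, CLU (1367 and 1557) lay above APOE (1327 and 1400.4). CLU and APP held the first 2 places in muscle in each species, and the synucleins the last 2. Neighbours in these orders often overlapped, as SNCB and APP did in goat brain (576 ± 131 and 586 ± 85.5 CPM per kb).

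The genes whose pattern was most like each of the 7 were found by the Pearson r of log2(CPM per kb + 1) over the 18 libraries. These values are descriptions: the libraries fall into 2 tissues, and each point shares its library and scaling. PRNP was most like GOLM2 (r = 0.98), SCAMP1 (0.97) and PREPL (0.97). Within brain without sheep brain C, its r with GOLM2 was 0.57. Within the 9 brain libraries it was most like UBQLN1, KPNA4 and PAFAH1B1 (0.995 for UBQLN1), and without sheep brain C the UBQLN1 r was 0.83. SNCB was most like JAKMIP1 (0.998), SNCG like SMOX (0.98), APP like NAP1L5 (0.99), MAPT like PI4KA (0.97), APOE like TTYH1 (0.99) and CLU like MARK4 (0.99).

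Beyond the 7 genes, 6 lists of related genes were read in the fit over the 3 species. The median log2 difference of all genes tested there was 0.11, and 31.9% of them were called higher in brain and 22.5% lower. Of the prion protein's family and partners 8 of 10 were tested, and 2 were called higher in brain and 2 lower, with a median of 0.46. These shares are near those of all genes, 31.9% and 22.5%. The endocytic receptor LRP1 was higher (1.54 ± 0.20, edgeR adjusted p = 1.23e-06), and PRNP is the other. CAV1, the caveolae protein caveolin 1, was lower (-3.66 ± 0.30, adjusted p = 2.45e-09), as was RPSA, the laminin receptor (-1.11 ± 0.27, adjusted p = 0.0014). The chaperone partner STIP1 (-0.71) passed the adjusted p but was under 2-fold, and the glypican GPC1 (0.25) was not called.

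Of 12 synuclein and parkinsonism genes, all tested, 7 were called higher in brain and 0 lower, with a median of 2.32, beside 31.9% and 22.5% of all genes. With the adjusted p alone, 3 were lower by edgeR. DNAJC6, the clathrin-uncoating cofactor auxilin, was higher by 9.53 ± 0.41 (edgeR adjusted p = 3.02e-13) and UCHL1, a neuronal ubiquitin hydrolase, by 5.85 ± 0.47 (adjusted p = 2.06e-09). The mitochondrial kinase PINK1 (-0.67) and PARK7, also called DJ-1 (-0.55), passed the adjusted p but were under 2-fold.

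Of 18 genes of the APP family, its secretases and adaptors, 7 were called higher in brain and 3 lower, with a median of 0.40, beside 31.9% and 22.5% of all genes. The paralog APLP1 was higher by 5.28 ± 0.25 (edgeR adjusted p = 1.02e-12), and the adaptors APBA1 and APBB1 by 5.67 ± 0.47 and 3.41 ± 0.20. The amyloid-degrading proteases MME, neprilysin (-3.90 ± 0.39, edgeR adjusted p = 3.94e-08), and IDE, insulin-degrading enzyme (-2.07 ± 0.27, adjusted p = 1.55e-06), were lower in brain. NCSTN, a subunit of gamma-secretase (0.19), was not called, and ITM2B (0.45) passed the adjusted p but was under 2-fold.

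Of 17 genes for tau, its kinases and other microtubule-associated proteins, 15 were tested, and 11 were called higher in brain and 1 lower, with a median of 1.60, beside 31.9% and 22.5% of all genes. CDK5R1, the activator of the tau kinase CDK5, was higher by 6.86 ± 0.38 (edgeR adjusted p = 8.4e-12), MAP1A by 4.96 ± 0.33, the kinase FYN by 2.59 ± 0.18 and the kinase MARK4 by 2.44 ± 0.16. MAP4, a microtubule-associated protein of many tissues, was lower (-1.39 ± 0.38, adjusted p = 0.00307). The kinase MARK3 (-0.59) passed the adjusted p but was under 2-fold.

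Of 15 apolipoproteins, lipid carriers and their receptors, 8 were called higher in brain and 3 lower, with a median of 1.54, beside 31.9% and 22.5% of all genes. The apolipoprotein E receptor LRP8 was higher by 5.68 ± 0.26 (edgeR adjusted p = 6.37e-13), and its relative VLDLR was lower by a log2 difference of -1.98 ± 0.14 (adjusted p = 3.37e-10). BIN1, a membrane-shaping protein with a muscle form at the T-tubules, was lower too (-2.95 ± 0.21, adjusted p = 3.37e-10). APOD (0.94) passed the adjusted p but was under 2-fold, and the sorting receptor SORT1 (0.62) was not called.

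Of 18 other genes of neurodegenerative disease, 16 were tested, and 3 were called higher in brain and 4 lower, with a median of 0.27. Of all genes 31.9% were higher and 22.5% lower. The autophagy receptors OPTN (-2.98 ± 0.22, edgeR adjusted p = 5.3e-10) and SQSTM1 (-2.02 ± 0.15, adjusted p = 7.53e-10) and the segregase VCP (-1.44 ± 0.14, adjusted p = 1.52e-08) were lower in brain. HTT, huntingtin, was higher (1.72 ± 0.19, adjusted p = 1.25e-07). The superoxide dismutase SOD1 (0.64) passed the adjusted p but was under 2-fold.

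**Figure D4:**
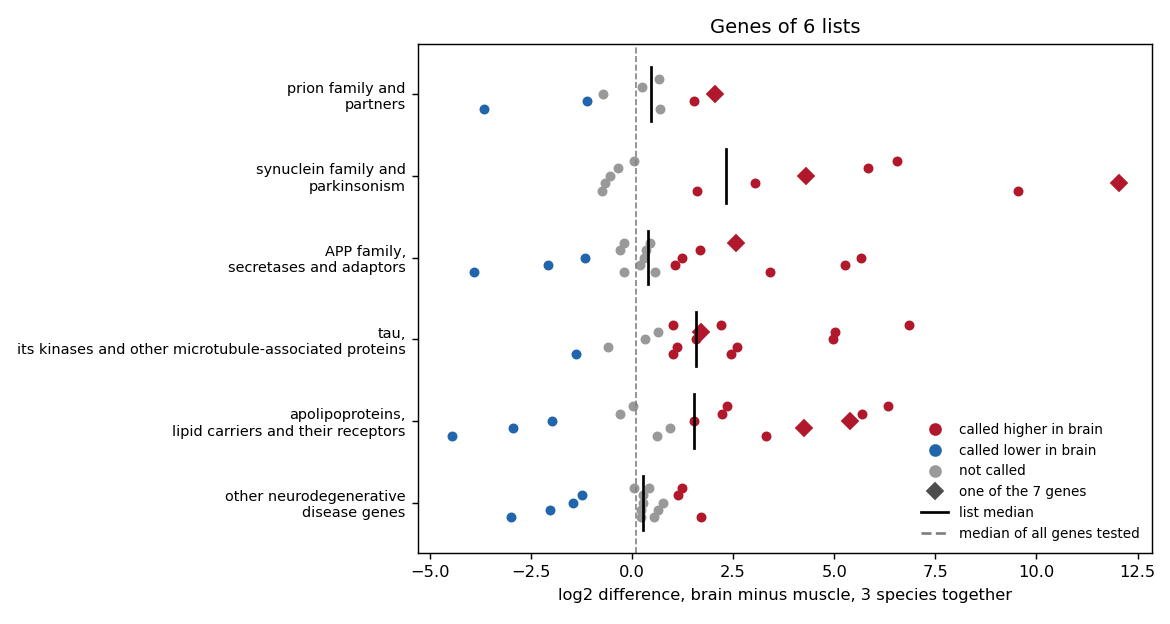
Log2 difference, brain minus muscle, over the 3 species together for the genes tested in 6 lists. Points are genes, diamonds are the 7 genes described here, bars are list medians and the dashed line is the median of all genes tested (0.11). The tau list has 11 genes called higher and 1 lower, and the other disease genes have 3 and 4.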

How the data were processed

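Poly(A)-selected RNA from frozen adult brain and muscle was sequenced, per the labels' protocols. The deposited values are raw read counts per Ensembl gene and library, made per species. The submitters' processing notes name Trimmomatic 0.39, STAR 2.7.6, featureCounts with no version, and the build ARS-UCD1.2. No source used here gives the sheep and goat builds, the strandedness or the treatment of reads with several placements. Reads shared by near-identical genes are therefore uncertain.

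Cattle genes were named by position against the RefSeq gene table, which is on a later build and shares 0 identifiers with the files. Of 27607 genes 16175 were named, and MAPT was among the 203 named because the model held at least 0.9 of the RefSeq span. Sheep and goat genes were matched by 2 or more pairs of neighbouring exons of equal length (10050 genes, with APP, MAPT, SNCG and CLU), by 1 shared exon length among matched neighbours (3790, with SNCB and APOE), or by gene order alone (1383, with PRNP). Each gene is placed here by the weaker of its links from cattle to sheep and to goat. By order alone a partner was found for 690 of 1098, 730 of 1101 and 757 of 1114 held-out matches in the 3 pairs of species, and 98.49% to 98.7% of those found were the same partner. The held-out genes were matches by exon pairs, so this share may not hold for genes such as PRNP that exon lengths did not link in all 3 species.

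Brain minus muscle in cattle, sheep, goat and all 3 together, the interaction and the species pairs were fitted by edgeR 4.0.16 (quasi-likelihood, robust, filterByExpr, trimmed-mean or TMM scaling) in R 4.3.3. Fits across species carried exonic length as an offset. Adjusted p-values are Benjamini-Hochberg over all genes tested. SE is the log2 difference over the square root of F. Levels in CPM per kb divide counts by the scaled library total and exonic length. DESeq2 1.42.0, other scalings, filters and left-out libraries were alternatives. Leaving out sheep brain C and goat muscle C together, leaving out each for the ratios and the SNCB bound, and keeping exon matches alone, were alternatives chosen after seeing the data. The fits were run on simulated counts that shared a single spread and held no library standing apart. That check does not bear on libraries such as sheep brain C.

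The genes named per list were the 4 of lowest adjusted p, at most 2 called with a sign opposite to the median, and 2 not called; some of them are not described here. The 7 genes and the lists were chosen with earlier results of these data known. At these depths the spread between libraries, not counting, limits most values, and counting limits the synuclein values in muscle.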

Additional observations from a re-analysis of the deposited data

Results flagged for a closer look

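Of the 7 genes, 3 were singled out because their difference between brain and muscle itself differed between cattle, sheep and goat in the test of the interaction. MAPT had an edgeR adjusted p of 0.00147, with log2 differences of 2.52 in cattle, 0.51 in sheep and 2.09 in goat, and brain was above muscle in 9 of 9 pairs of libraries within each species. SNCG had an edgeR adjusted p of 0.0173, with log2 differences of 6.06 in cattle, 4.57 in sheep and 2.50 in goat. SNCB had an edgeR adjusted p of 0.0368, on 24, 0 and 5 muscle reads in cattle, sheep and goat. Groups of 3 libraries are too small for a test of single outlying libraries, so sheep brain C and goat muscle C were not picked out by one.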

How the results depend on the processing

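The 7 tissue differences kept their direction and their call within each species and over the 3 species in 414 of 416 values recomputed under alternatives. The exceptions were PRNP in sheep without sheep brain C (2.05) and MAPT in sheep with library totals alone (1.47), which were then called. The number of the 7 called higher in sheep was 5 to 6, and the number called for the interaction 2 to 3, when 1 library was left out. With first-pass matches only, 4 were called over the 3 species, since PRNP, SNCB and APOE are not among those matches.

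Calls between species depended on more settings. Within brain, cattle minus sheep, 2 were called, against 1 with RLE scaling, 1 with no length offset, 1 with first-pass matches, 0 without sheep brain C and goat muscle C, and 0 to 2 with 1 library left out. Within brain, cattle minus goat, 1 was called, against 3 with library totals alone, 2 with DESeq2, 0 with no length offset, 2 without those libraries, and 1 to 2 with 1 library left out. Within brain, sheep minus goat, the count was 1 with first-pass matches. Within muscle it was 5 with library totals alone for cattle minus sheep, and with no length offset 4 for cattle minus goat, CLU not among them, and 0 for sheep minus goat. Of 42 places in the orders of level, 2 changed with library totals and 21 without length. With the adjusted p alone, 3 genes were lower in the synuclein list, 2 lower in the tau list and 7 higher among the other disease genes. APOE, which was called within brain for cattle minus sheep and for sheep minus goat, is not among the first-pass matches. The causes of the other changes were not tested.

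The labels do not say whether a letter pairs brain with muscle. Same-letter correlations of deviations from the group mean over 9807 genes ran from -0.23 to 0.21. They cannot settle it, since deviations in unlike tissues need not correlate. With the replicate block the counts called were 7 in cattle, 5 in sheep, 7 in goat, 7 over the 3 species and 3 for the interaction, as without it, and PRNP in sheep was 0.80.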
